A study of Mus musculus with 4 samples.

Results

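The levels of 8 long noncoding RNAs were followed in mouse embryonic stem (ES) cells after knockdown of Atad2, a bromodomain protein with an AAA ATPase domain. They are Malat1 and Neat1, which stay in the nucleus, and the snoRNA host genes Gas5, Snhg1, Snhg3, Snhg5, Snhg8 and Snhg12. These 8 genes were taken as a list by name, out of 21734 genes to which rows of the deposited tables could be assigned and 10607 that were expressed enough to be tested. All 8 were listed, and all 8 passed the limit of a mean of 1 FPKM (fragments counted relative to the length of the transcript and the size of the library). In the si-Atad2 libraries, Neat1 was higher than in the si-ctrl libraries and passed the test, and none of the other 7 RNAs did.

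The cells were 46C ES cells carrying a knock-in of a TAP tag at Atad2, grown with LIF on gelatin without feeder cells being named. The tagged line goes back to 1 chosen clone. Cells were transfected with a scrambled, inactive siRNA (si-ctrl, 2 libraries) or with active siRNA against Atad2 (si-Atad2, 2 libraries), so all 4 libraries share the tag and the transfection. The labels call the libraries of a condition replicates 1 and 2, whereas the study's methods speak of more than 1 active siRNA and of repeat sequencing. Which siRNA was used for which library is not stated, no time after transfection is given in the sources used here, and p-values may measure technical spread only. Each si-Atad2 library was scaled together with the si-ctrl library of the same number, and the change was taken within such a pair as the log2 ratio of (FPKM + 1), which understates the change of weakly expressed RNAs. The tables hold no read counts, so the depth behind these values is unknown. Summed over all rows, a library held from 676151 to 743454 FPKM, of which 52.3% to 57.5% fell in rows shorter than 200 bases.

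Malat1 is an abundant RNA of nuclear speckles, the compartments that store splicing factors. Neat1 is the scaffold of paraspeckles, and only its long isoform builds them. The short isoform shares the 5′ region and ends in a poly(A) tail, whereas the long isoform ends in a stretch of A residues encoded in the genome and held in a triple helix. A snoRNA host gene carries small nucleolar RNAs in its introns, and these are cut from the spliced-out introns and guide the chemical modification of ribosomal RNA. C/D box snoRNAs guide methylation and H/ACA box snoRNAs guide pseudouridylation. The spliced exons of hosts such as Gas5 hold no long reading frame and are removed by nonsense-mediated decay. Several hosts begin, as ribosomal protein genes do, with a 5′ terminal tract of pyrimidines.

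The start sites of 7 of the 8 RNAs are shown to compare this tract, each with 10 bases before and 30 bases from the start onward, from the RefSeq promoter table of GRCm38.p6. Neat1 was without an entry. Capitals mark a tract of pyrimidines, defined as a C followed by at least 4 bases that are C or T and beginning within 5 bases of the start on the gene's strand.
Malat1, chr19:5802643-5802682, minus strand: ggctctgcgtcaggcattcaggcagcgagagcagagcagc
Gas5, chr1:161035156-161035195, plus strand: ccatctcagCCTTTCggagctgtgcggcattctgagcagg
Snhg1, chr19:8723477-8723516, plus strand: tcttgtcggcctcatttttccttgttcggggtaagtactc
Snhg3, chr4:132353657-132353696, minus strand: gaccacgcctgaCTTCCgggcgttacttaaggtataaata
Snhg5, chr9:88522868-88522907, minus strand: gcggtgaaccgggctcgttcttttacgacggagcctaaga
Snhg8, chr3:123508307-123508346, minus strand: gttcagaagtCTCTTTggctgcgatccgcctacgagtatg
Snhg12, chr4:132308668-132308707, plus strand: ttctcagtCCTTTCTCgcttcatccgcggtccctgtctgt

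The tract was present at 4 of these 7 starts, those of Gas5, Snhg3, Snhg8 and Snhg12, and at 16.1% of the 32851 promoters in the table. Its length was 6 bases in Gas5, 5 in Snhg3, 6 in Snhg8 and 8 in Snhg12. Relative to the annotated start it began at -1 in Gas5, 2 in Snhg3, 0 in Snhg8 and -2 in Snhg12, so that of Snhg3 is not terminal there. For Malat1 the start in the table lay 1 base from the edge of the deposited row, and for the other 6 genes it fell on that edge.

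The 3′ ends of Neat1 are shown because they set what the deposited values can measure. The rows of Neat1 end at the short isoform, 60 bases of which are given first with the AATAAA polyadenylation signal in capitals. The last 60 bases of the annotated long isoform follow, with an A-rich stretch in capitals (both from the GENCODE vM21 transcripts of GRCm38, minus strand).
Neat1 end of the deposited rows, chr19:5842302-5842361: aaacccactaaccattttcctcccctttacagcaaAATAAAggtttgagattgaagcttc
Neat1 end of the long isoform, chr19:5824708-5824767: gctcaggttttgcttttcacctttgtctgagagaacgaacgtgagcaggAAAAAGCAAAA

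AATAAA lay 19 bases before the end of the rows, and 28.5% of 134529 annotated transcripts of at least 200 bases hold it in their last 60 bases. The stretch AAAAAGCAAAA is the longest one at that end with at most 2 bases other than A, and 1.5% of these transcripts end in such a stretch of 11 bases or more. The long isoform spans 20771 bases, and 84.7% of it (17594 bases) lies beyond the rows, which cover 3177 bases. The Neat1 values below are therefore those of the 5′ region that both isoforms share, and the isoforms cannot be told apart. Whether the preparation of the libraries favoured 1 of the isoforms was not tested.

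The snoRNA hosts hold between 1 and 9 annotated snoRNAs on their own strand (overlapping entries counted once, 1 of those in Gas5 carrying a microRNA name), namely 9 in Gas5, 8 in Snhg1, 4 in Snhg12, 2 each in Snhg3 and Snhg5 and 1 in Snhg8, while Malat1 and Neat1 hold 0. A few of them are given as examples of what the hosts carry (GENCODE vM21, GRCm38), with the C box (TGATGA) and D box (CTGA), or the ACA box, in capitals.
Snord47 in Gas5, chr1:161038082-161038158, plus strand: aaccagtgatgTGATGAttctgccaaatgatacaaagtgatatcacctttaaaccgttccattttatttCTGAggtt
Snord50a in Snhg5, chr9:88521529-88521600, minus strand: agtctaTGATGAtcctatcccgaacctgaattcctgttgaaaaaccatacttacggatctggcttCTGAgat
Snord50b in Snhg5, chr9:88521797-88521868, minus strand: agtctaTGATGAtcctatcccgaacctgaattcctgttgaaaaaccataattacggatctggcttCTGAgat
Snora24 in Snhg8, chr3:123507937-123508066, minus strand: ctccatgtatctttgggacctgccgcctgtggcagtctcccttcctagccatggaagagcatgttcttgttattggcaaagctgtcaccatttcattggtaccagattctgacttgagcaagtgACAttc

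A TGATGA followed by a CTGA was found in 24% of 1507 annotated snoRNAs. Snord50a and Snord50b, both of 72 bases, differ at 1 position (C50A, counted from the 5′ end, Snord50a first), so short reads from one can hardly be told from those of the other. The ACA box of Snora24 stands 3 bases from its end. Mature snoRNAs are much shorter than the rows that were summed, and the values below are meant to measure the host RNAs. Some summed rows of Gas5, Snhg1 and Snhg8 keep intron sequence, so fragments of snoRNAs may be counted in them. The only summed row of Snhg5, of 1010 bases, has 54.7% of the length of its locus and matched no annotated transcript. Whether it keeps intron sequence was not tested, so the same may hold there.

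In the si-ctrl libraries the 8 RNAs spanned levels from about 26 to 125 FPKM. Gas5, whose name stands for growth arrest-specific, had 122 FPKM in the first and 127 FPKM in the second si-ctrl library, and Snhg1 had 116 and 130 FPKM. The ranges of these highest 2 RNAs over the 4 libraries overlapped. Snhg8 followed at 85.9 and 82.1 FPKM, below both without overlap. Snhg5 stood at 49.3 and 52.2 FPKM, Malat1 at 56.5 and 40.4 FPKM and Snhg3 at 43.0 and 52.5 FPKM, and neighbours in this middle group overlapped. Snhg12 at 35.6 and 39.0 FPKM lay below Snhg3 in all 4 libraries. Neat1 was lowest, at 25.6 and 26.5 FPKM, and overlapped with Snhg12 over all 4 libraries but not within the si-ctrl libraries alone. Among the 10607 genes tested, the levels of these RNAs stood between the 79.6th percentile (Neat1) and the 97.0th (Gas5). The 2 si-ctrl libraries come from separate Cuffdiff runs, so this order is a description.

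**Figure D1:**
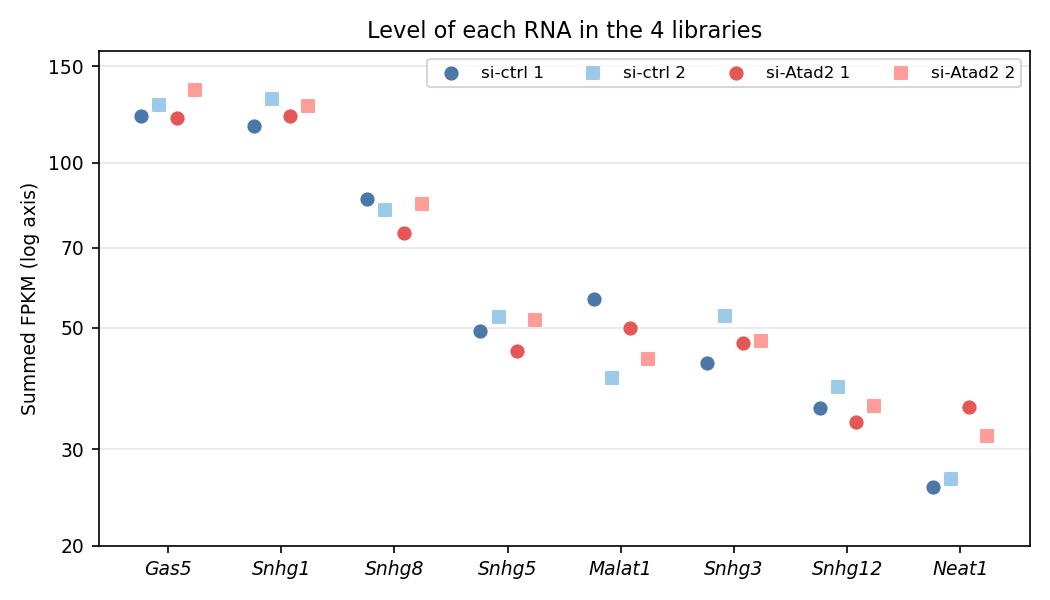
Level of the 8 RNAs in each library. The vertical log axis gives the summed FPKM, the RNAs are ordered from left to right by their mean si-ctrl level, circles are the libraries numbered 1 and squares those numbered 2; Neat1 is the RNA whose si-Atad2 points (35.9 and 31.7 FPKM) both lie above its si-ctrl points (25.6 and 26.5 FPKM).

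The knockdown itself was seen in the targeted gene, which fell from 34.1 and 36.0 FPKM in si-ctrl to 10.1 and 13.0 FPKM in si-Atad2, with a mean log2 ratio of -1.53 and an adjusted p of 2.3e-05 by limma. The labelled cell type was checked on its markers. Pou5f1, Nanog, Sox2, Zfp42, Esrrb, Klf4 and Tfcp2l1, 7 ES cell genes, were all expressed. By limma 0 of 7 passed the adjusted test, while Pou5f1 and Nanog (2 of 7) had an unadjusted p under 0.05, beside 16.2% of all genes. The ratios of 6 of the 7 were below 0 in both pairs, beside 33.9% of all genes, with means of -0.25 for Nanog and -0.14 for Pou5f1, and Sox2 was above 0 in both. The part of this in the values below was not tested. Of 12 markers of other cell types 11 were listed, 6 could be tested and 0 passed by limma, with 1 (Pax6) at an unadjusted p under 0.05. This test is of change and does not show that they are absent. Thy1 was the highest of them, at 6.70 and 6.23 FPKM in si-ctrl, where Pou5f1 had 807 and 778 FPKM. Eomes stood at 2.16 and 2.33 FPKM and Pax6 at 2.15 and 2.53 FPKM in si-ctrl. Gata6, Sox17, Afp, Col1a2 and Cdx2 lay below the limit of a mean of 1 FPKM.

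Neat1 (ENSMUSG00000092274.3, chromosome 19, 5824708 to 5845478, minus strand) was the RNA that passed the test. Its level was 25.6 FPKM in the first and 26.5 FPKM in the second si-ctrl library, and 35.9 and 31.7 FPKM in the si-Atad2 libraries 1 and 2. Both si-Atad2 libraries were above both si-ctrl libraries. The mean was 26.1 ± 0.607 FPKM (SD, n = 2) in si-ctrl and 33.8 ± 2.95 FPKM (SD, n = 2) in si-Atad2. The level in si-Atad2 was 139.9% of that in si-ctrl in pair 1 and 119.6% in pair 2, with log2 ratios of 0.47 and 0.25. The mean log2 ratio was 0.36 (95% interval 0.20 to 0.52), that is 1.28-fold higher (1.15 to 1.43), with an adjusted p of 0.0362 by limma. The si-ctrl libraries differed from each other by 0.05 and the si-Atad2 libraries by -0.17 on the same scale. In bulk RNA, more cells that express Neat1 and more Neat1 RNA per cell cannot be told apart.

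Among all genes tested, 1.83% passed the same test (194 of 10607), 1.47% as higher and 0.358% as lower. By limma 1 of the 8 RNAs passed, and 1 of 8 had an unadjusted p under 0.05, against 16.2% of all genes. A gene had both si-Atad2 libraries above both si-ctrl libraries in 22.5% of cases and both below in 26.7%, and for these RNAs this held for 1 and 0 of 8. A separation of the groups like that of Neat1 was thus common among genes. With 2 libraries against 2 and the pairs ignored, the smallest p of a two-sided exact permutation test is 0.333. A single gene thus cannot pass such a test on its own.

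The call of Neat1 depended on how the data were treated, while its direction did not. In the fits that used all 4 libraries it passed under 6 of 10 alternatives (adjusted p between 0.0228 and 0.459 by limma), and it missed the threshold with no filter on low genes, with short rows included, with no replicate block and with no trend in eBayes. With 1 library left out, the mean log2 ratio of Neat1 was 0.34 without si-ctrl 1 and 0.38 without si-ctrl 2, and the call was lost in both. It was 0.27 without si-Atad2 1 and 0.45 without si-Atad2 2, and the call was kept. Such fits take the spread from the 2 libraries of the other condition alone, so they cannot decide whether the call holds.

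The change of Neat1 was carried by 1 of its 3 rows of at least 200 bases. The row of 3177 bases, the full short isoform, took between 93.3% and 97.1% of the gene's FPKM. With the authors' 95% interval, its si-ctrl levels were 24.3 FPKM (23.5 to 25.1) and 25.7 FPKM (24.9 to 26.6), and its si-Atad2 levels were 33.5 FPKM (32.5 to 34.4) and 30.6 FPKM (29.7 to 31.6). The intervals of the si-Atad2 libraries lay above those of the si-ctrl libraries, although such an interval covers the estimate within 1 library only. A row of 3004 bases was listed at 0.35 and 0.18 FPKM in si-ctrl and at 1.23 and 0.49 FPKM in si-Atad2. The third row, of 1026 bases, had 1.00 and 0.60 FPKM in si-ctrl and 1.19 and 0.60 FPKM in si-Atad2.

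**Figure D2:**
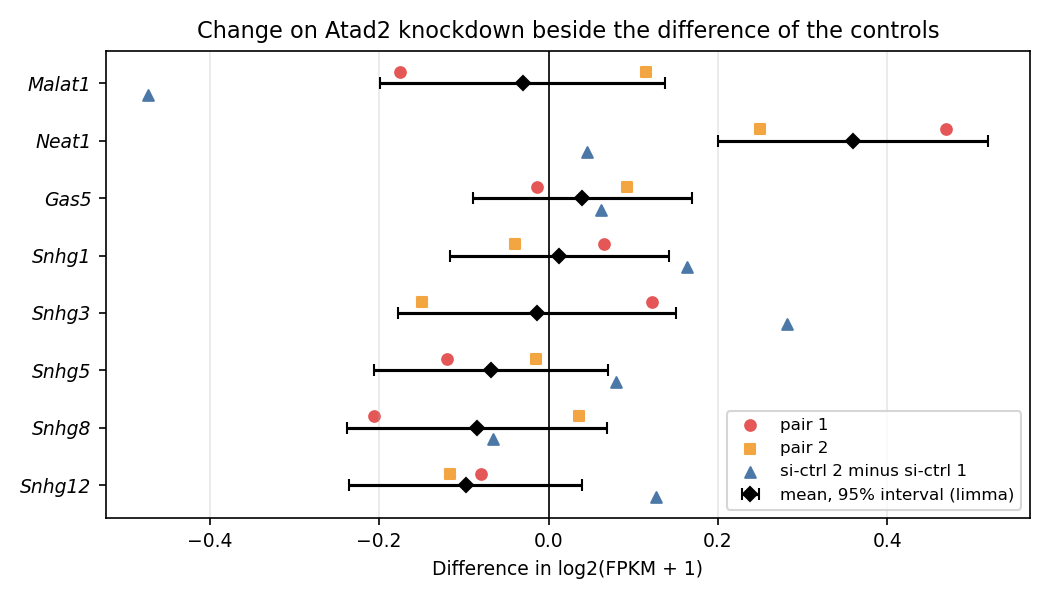
Change of each RNA on knockdown. The horizontal axis is the difference in log2(FPKM + 1), circles and squares are the log2 ratios on knockdown in pairs 1 and 2, diamonds with bars are their mean and 95% interval from limma, and triangles are the difference of the 2 si-ctrl libraries; the interval of Neat1 (0.20 to 0.52) is the one that leaves 0, and the triangle of Malat1 (-0.47) lies farther from 0 than any ratio of that RNA.

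Malat1 (ENSMUSG00000092341.3, chromosome 19, 5795690 to 5802672, minus strand), whose start lies 42.8 kb from that of Neat1, did not pass the test. Its level was 56.5 FPKM in the first and 40.4 FPKM in the second si-ctrl library, and 49.9 and 43.8 FPKM in the si-Atad2 libraries 1 and 2. Both si-Atad2 values lay between the 2 si-ctrl values. The ratios of the pairs were -0.18 and 0.11 on the log2 scale, and their mean was -0.03 (95% interval -0.20 to 0.14, adjusted p 0.883 by limma). The si-ctrl libraries differed by -0.47, a larger distance than in 99.8% of the genes tested, and the si-Atad2 libraries by -0.18. All of these values come from 1 row of 6982 bases that spans the locus, and its authors' intervals in si-ctrl 1 (55.6 to 57.3 FPKM) and si-ctrl 2 (39.7 to 41.1 FPKM) did not overlap.

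The 6 snoRNA hosts had mean log2 ratios between -0.10 and 0.04, and none passed the test. A ratio above 0 in both pairs was found for 28.8% of all genes and here for Neat1. Snhg12 and Snhg5 were the 2 hosts with a ratio below 0 in both pairs, which 33.9% of all genes had, and for 4 hosts and Malat1 the sign differed between pairs, as for 37.2% of all genes. The intervals of the 6 hosts reached no farther than -0.24 and 0.17. The median over all 8 RNAs was -0.02, beside -0.01 over all genes tested.

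Gas5 (ENSMUSG00000053332.13, chromosome 1, 161034422 to 161038539) was listed at 122 and 127 FPKM in si-ctrl and at 121 and 136 FPKM in si-Atad2. The si-Atad2 libraries held both the lowest and the highest value. Its mean log2 ratio was 0.04 (95% interval -0.09 to 0.17, adjusted p 0.788 by limma). Of its 6 rows, the one of 344 bases, which has the length of an annotated spliced transcript, was listed at 41.6 and 45.1 FPKM in si-ctrl and at 46.5 and 51.3 FPKM in si-Atad2. Another row with the length of an annotated transcript, of 370 bases, went the other way in both pairs, with 13.5 and 10.2 FPKM in si-ctrl against 11.5 and 9.44 FPKM in si-Atad2. The row of 2554 bases keeps 75.7% of the locus, so that most intron sequence is left in it, and it took 13.6% and 14.1% of the gene's FPKM in si-ctrl and 12.5% and 13.2% in si-Atad2. Fragments were divided between overlapping rows by the authors' estimate, so the values of single rows are less sure than their sum.

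Snhg1 (ENSMUSG00000108414.1, chromosome 19, 8723475 to 8726443), which hosts a cluster of C/D box snoRNAs, was listed at 116 and 130 FPKM in si-ctrl and at 122 and 127 FPKM in si-Atad2. Both si-Atad2 values lay within the range of si-ctrl. The mean log2 ratio was 0.01 (95% interval -0.12 to 0.14, adjusted p 0.938 by limma). Its spliced row of 476 bases took 74.4% to 76.5% of the total, and the 2 rows that keep at least 70% of the locus together took 23.5% to 25.6%.

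Snhg8 (ENSMUSG00000104960.1, chromosome 3, 123507552 to 123508404), the host of Snora24, was listed at 85.9 and 82.1 FPKM in si-ctrl and at 74.4 and 84.2 FPKM in si-Atad2. The first si-Atad2 library was the lowest of the 4, and the other lay within the si-ctrl range. The mean log2 ratio was -0.08 (95% interval -0.24 to 0.07, adjusted p 0.591 by limma). The row that spans the whole locus took 9.03% to 10.9% of the FPKM.

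Snhg5 (ENSMUSG00000097195.9, chromosome 9, 88521050 to 88522929), the host of Snord50a and Snord50b, was listed at 49.3 and 52.2 FPKM in si-ctrl and at 45.3 and 51.7 FPKM in si-Atad2. The groups overlapped. The mean log2 ratio was -0.07 (95% interval -0.21 to 0.07, adjusted p 0.640 by limma).

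Snhg3 (ENSMUSG00000085241.7, chromosome 4, 132348014 to 132353686), which hosts the H/ACA box snoRNAs Snora73a and Snora73b, was listed at 43.0 and 52.5 FPKM in si-ctrl and at 46.9 and 47.2 FPKM in si-Atad2. The si-Atad2 libraries were close to each other and lay between the si-ctrl libraries, whose difference of 0.28 on the log2 scale was larger than in 98.8% of genes. The mean log2 ratio was -0.01 (95% interval -0.18 to 0.15, adjusted p 0.949 by limma). The gene overlaps Rcc1 on the same strand, so reads of the pair may be divided between them.

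Snhg12 (ENSMUSG00000086290.9, chromosome 4, 132308623 to 132311024) was listed at 35.6 and 39.0 FPKM in si-ctrl and at 33.7 and 35.9 FPKM in si-Atad2. The groups overlapped, with si-Atad2 1 as the lowest library. The log2 ratios were -0.08 and -0.12, and the mean was -0.10 (95% interval -0.24 to 0.04, adjusted p 0.481 by limma). Its rows of 933 and 606 bases took 45.2% to 49.5% and 50.5% to 54.8% of the total.

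The coding gene whose start lies nearest was examined next for Neat1 and the snoRNA hosts. Frmd8, a FERM domain protein that binds the iRhom proteins, starts 29796 bases from Neat1 on the same strand. On this minus strand Frmd8 runs from 5875274 to 5849702, and Neat1 begins at 5845478. The end of Frmd8 thus lies much closer to Neat1 than its start does. Whether the values of the 2 genes are independent was not tested. Frmd8 was listed at 12.8 and 12.4 FPKM in si-ctrl and at 19.04 and 19.8 FPKM in si-Atad2. It thus had both si-Atad2 libraries above both si-ctrl libraries, as did 22.5% of all genes. Its log2 ratios were 0.54 and 0.64, with a mean of 0.59 (95% interval 0.43 to 0.74) and an adjusted p of 0.00313 by limma. It missed the threshold with no filter (adjusted p 0.368), without si-ctrl 1 (0.0540) and without si-ctrl 2 (0.0783). Frmd8os is annotated on the opposite strand there, and reads of Frmd8 and Frmd8os cannot be told apart where counting ignores the strand, which the sources used here do not say.

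In a window of 150 kb on either side of the start of Neat1, which was chosen after these values had been seen, 9 genes were tested, and Neat1 and Frmd8 were the 2 that passed. Malat1, Ltbp3 and Ehbp1l1 lie on the one side, and Tigd3, Dpf2, Cdc42ep2 and Pola2 on the side of Frmd8. Cdc42ep2, an effector of the GTPase Cdc42 that starts 79.3 kb away, had 2.66 and 2.41 FPKM in si-ctrl and 4.91 and 2.85 FPKM in si-Atad2, with an adjusted p of 0.0980 by limma. Dpf2, a subunit of the BAF remodelling complex, stood at 36.2 and 35.2 FPKM in si-ctrl and at 25.1 and 36.1 FPKM in si-Atad2, so that its ratios of -0.51 and 0.04 differed in sign. Malat1 and the 4 other genes in the window (Ehbp1l1, Ltbp3, Tigd3 and Pola2) had mean log2 ratios between -0.07 and 0.09.

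**Figure D3:**
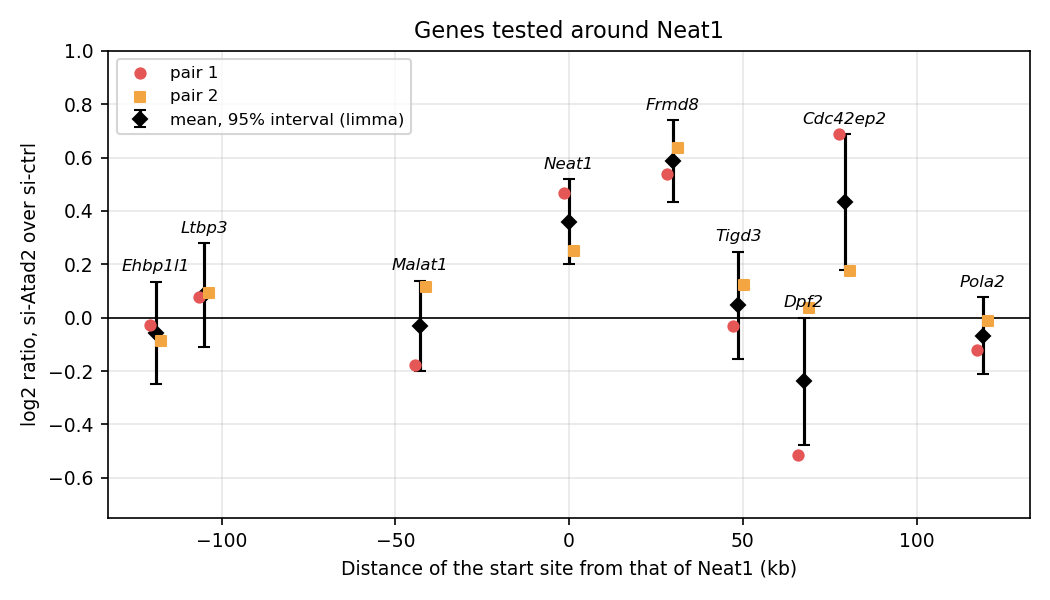
Genes tested around Neat1. The horizontal axis is the distance of each gene's start from that of Neat1 in kb along chromosome 19, the vertical axis is the log2 ratio of si-Atad2 over si-ctrl, circles and squares are pairs 1 and 2 and diamonds with bars are the mean and 95% interval from limma; Neat1 (0.36) and Frmd8 (0.59) passed the test, and the other 7 genes did not.

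The nearest coding genes of the snoRNA hosts did not pass or were not tested. Slc3a2, the heavy chain of amino acid transporters, starts 106 bases from Snhg1 in the opposite direction and had 92.1 and 88.6 FPKM in si-ctrl and 86.8 and 79.2 FPKM in si-Atad2 (mean log2 ratio -0.12, adjusted p 0.344 by limma). Both of its si-Atad2 libraries were below both si-ctrl libraries, as for 26.7% of all genes. Snhg1 from the adjacent start overlapped between the groups. Rcc1, the exchange factor of the GTPase Ran, starts 81 bases from Snhg3. It had 66.7 and 64.7 FPKM in si-ctrl and 56.3 and 57.4 FPKM in si-Atad2. Its mean log2 ratio was -0.20 (interval -0.34 to -0.07, adjusted p 0.129 by limma). Both si-Atad2 libraries of Rcc1 were likewise below both si-ctrl libraries, while Snhg3 overlapped between the groups. Zbtb37, 427 bases from Gas5 on the opposite strand, had a mean log2 ratio of 0.03, and Zfp949, 25091 bases from Snhg5, one of 0.20 (adjusted p 0.886 and 0.329 by limma). Prss12, which starts 61491 bases from Snhg8, and Rab42, 5238 bases from Snhg12, lay below the limit of a mean of 1 FPKM.

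The 3 genes with the most similar pattern were sought for each RNA among 7204 genes with a mean of at least 5 FPKM. Likeness was the Euclidean distance over 3 log2 differences of the 4 libraries, namely the ratio in each pair and the difference of the si-ctrl libraries. Nearest to Neat1 were Susd6 (distance 0.020), the linker histone gene Hist1h1c (0.050) and Zkscan14 (0.053), and 24 genes lay within 0.1. Susd6 had ratios of 0.46 and 0.27. Nearest to Malat1 were Gm47283 (0.169), the immunoproteasome subunit Psmb9 (0.187) and Nkx2-9 (0.196), and 0 genes lay within 0.1. Snhg3 had 14 genes within that distance, led by Hnrnpa1, Gtf2a2 and Ube2q2.

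The other hosts had many more genes near them, from 275 for Gas5 to 368 for Snhg5. Jmjd4, Cept1 and Cenpf came closest to Gas5, and EU599041, mt-Nd2 and Tmem126a to Snhg1. Ddx43, Stil and the ribosomal protein gene Rpl24 came closest to Snhg5. Jmjd8, Rtkn and Eif3d were nearest to Snhg8, and Twistnb, Eif4g2 and Snrpb2 to Snhg12. With 4 libraries these distances are a description of the pattern.

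Genes of the same pathways were counted from lists. An unadjusted p under 0.05 by limma, counted below for each list, was reached by 16.2% of all genes tested. Of 15 other noncoding snoRNA hosts 14 were listed and tested, and by limma 0 passed, 3 of them (Snhg15, Snhg16 and Dancr) with an unadjusted p under 0.05. Their mean log2 ratios ran from -0.17 (Snhg15) to 0.10 (Snhg7), with a median of -0.06. Of 21 coding hosts, such as ribosomal protein and translation factor genes, 17 were tested and 0 passed, with 3 at an unadjusted p under 0.05. They ran from -0.29 for Eif4a1, an RNA helicase of translation initiation, to 0.05 for Rpl23a, with a median of -0.07. Rpl23a stood at 4.63 and 4.85 FPKM in si-ctrl and at 5.06 and 4.81 FPKM in si-Atad2. Rpl4 of the same list had 1075 and 1098 FPKM in si-ctrl. Whether all rows of Rpl23a were assigned was not tested.

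Of 12 proteins that bind or assemble snoRNAs, 9 were tested and 1 passed by limma. Nop10, a core protein of H/ACA particles, was listed at 162.6 and 159.2 FPKM in si-ctrl and at 205 and 194 FPKM in si-Atad2. Both si-Atad2 libraries were above both si-ctrl libraries, as for 22.5% of all genes. The mean log2 ratio was 0.31 (95% interval 0.19 to 0.43, adjusted p 0.0216 by limma). The call was lost with no filter, with short rows included, with no trend and without either si-ctrl library. Fbl, the methyltransferase of C/D particles, was lowest of the list with 35.1 and 32.5 FPKM in si-ctrl and 29.95 and 28.4 FPKM in si-Atad2 (mean log2 ratio -0.21, adjusted p 0.142). Besides Nop10, Fbl, Snu13 and Ruvbl1 had an unadjusted p under 0.05 by limma (4 of 9 in all, beside 16.2% of all genes). The median of the list was -0.11.

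**Figure D4:**
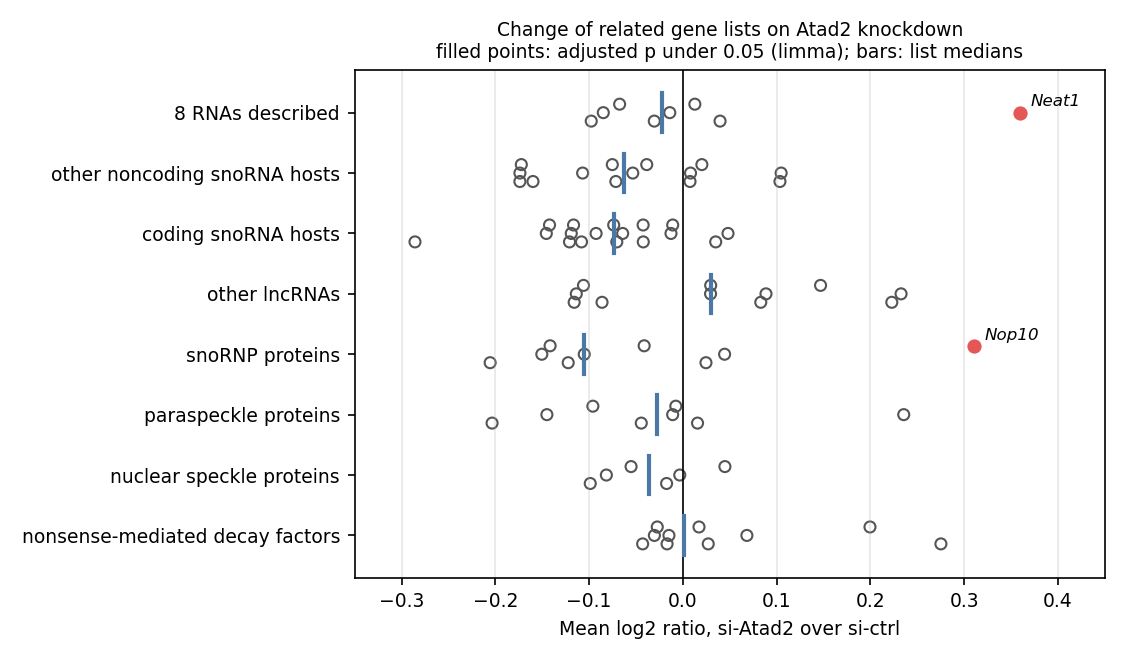
Change of related gene lists. Each point is 1 gene at its mean log2 ratio of si-Atad2 over si-ctrl, filled where the adjusted p by limma is under 0.05, and the vertical bars are list medians; Neat1 (0.36) and Nop10 (0.31) are the filled points, and most other genes lie between -0.2 and 0.2.

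Among paraspeckle proteins, which assemble on Neat1, 8 of 10 were tested and by limma 0 passed. Pspc1 and Nudt21 (2 of 8) had an unadjusted p under 0.05 by limma, beside 16.2% of all genes. Pspc1, paraspeckle component 1, was lowest (27.2 and 27.3 FPKM in si-ctrl against 21.8 and 25.4 FPKM in si-Atad2, mean log2 ratio -0.20), and Nudt21, a factor of 3′ end processing, was highest (13.1 and 12.0 FPKM against 15.3 and 14.6 FPKM, mean log2 ratio 0.24). Their adjusted p-values by limma were 0.197 and 0.128. Of 8 proteins of nuclear speckles, where Malat1 resides, 6 were tested and 0 passed, with 0 at an unadjusted p under 0.05 by limma. They ran from -0.10 (Srsf7) to 0.04 (Sf3b1).

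All 10 factors of nonsense-mediated decay were tested and by limma 0 passed. Upf1 and Upf3a (2 of 10) had an unadjusted p under 0.05 by limma, beside 16.2% of all genes. Upf1, the helicase of this pathway, was highest, with a mean log2 ratio of 0.28 (adjusted p 0.162 by limma). It had 3.13 and 2.33 FPKM in si-ctrl and 3.62 and 3.36 FPKM in si-Atad2. Whether all rows of Upf1 were assigned was not tested. Smg5 was lowest at -0.04. Of 17 other long noncoding RNAs 11 were tested and 0 passed by limma, with 2 at an unadjusted p under 0.05. These were Tsix, the antisense RNA of Xist, with a mean log2 ratio of 0.23, and Tug1 with 0.22, while Meg3 was lowest at -0.12. Tsix and Xist overlap on opposite strands and no row was assigned to Xist, so reads of the pair cannot be told apart where counting ignores the strand. Genes of the lists that were not tested were below 1 FPKM in the rows assigned to them or had no row that could be assigned.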

How the data were processed

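Total RNA of 4 libraries was prepared with TruSeq RNA and sequenced as paired ends of 50 cycles. The authors compared libraries of the same number with Cuffdiff and deposited FPKM per transcript, scaled within the run, with 95% intervals. Their labels name TopHat and mm9, but the loci fit GRCm38, and a supplement names Bowtie. Deposited fold changes, p-values and q-values were not used. Versions and use of the strand are not given in the sources used here.

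Here, 59120 rows were named by length (within 3 bases) and locus from GENCODE vM21, or else by RefSeq. Rows under 200 bases were dropped (6632), and 6881 longer rows stayed unnamed. FPKM were summed per gene, and genes with valid status whose mean reached 1 FPKM were tested. The 2 log2 ratios of FPKM + 1 were fitted with limma 3.58.1 (R 4.3.3, intercept, eBayes with trend) and adjusted by Benjamini-Hochberg over 10607 genes at 0.05. Genes at loci merged by the authors are held only in part. The genes described and the lists were chosen with earlier results of these data known. The alternatives were pseudocounts, filters, TPM, median of ratios, rows, block, trend, GC content and libraries or pairs left out. Other genes named are the nearest coding gene (that of Malat1 is not reported here), the 3 most similar genes, and the passing, highest and lowest genes of each list. Low FPKM values were not whole multiples of 1 read, so reads were not recovered.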

Additional observations from a re-analysis of the deposited data

Results flagged for a closer look

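A row of 62 bases inside Snhg12 was left out of the sums because FPKM of so short an RNA are unreliable. It was listed at 2661 FPKM in si-ctrl 1, 4514 FPKM in si-ctrl 2, 11161 FPKM in si-Atad2 1 and 5812 FPKM in si-Atad2 2. Both si-Atad2 values were above both si-ctrl values. Among genes summed over rows of at least 200 bases this held for 22.5%, and the share among short rows was not computed. The authors' 95% intervals overlapped between all 4 libraries and reached down to 0 in 3 of them.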

How the results depend on the processing

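Of 133 values of the 8 RNAs under the alternatives, 115 kept their direction and 18, all of RNAs that did not pass, turned. The count of passing RNAs went from 1 to 0 with no filter, with short rows included, with rows matched by length only (5 RNAs tested, Neat1 not among them), with no replicate block, without a trend, and without either si-ctrl library, and lay between 0 and 1 with 1 library left out. With no replicate block the adjusted p of Neat1 was 0.0515 by limma. The replicate numbers share a Cuffdiff run, but the deviations of same-numbered libraries had a correlation of -0.03 over genes. Over all genes, 194 passed, against 0 with no filter (1873 at an unadjusted p under 0.05), 65 with short rows, 31 with matched rows, 129 without a trend, 383 at a threshold of 0.1, 16 and 11 without si-ctrl 1 or 2, and 766 and 2038 without si-Atad2 1 or 2. The median of the 8 RNAs was -0.022, and was above 0 in TPM (0.0127), without si-ctrl 2 (0.0215), without si-Atad2 1 (0.0143) and without pair 1 (0.0107). Malat1 was 0.0044 and Snhg3 0.021 in TPM, which moved the median of all genes to 0.03, and Snhg1 was -0.0094 with the GC trend removed together with the replicate block. With short rows Gas5 was -0.38 and Snhg12 1.20. With 1 library left out, Malat1 reached 0.206 and 0.0607, Snhg1 -0.0687 and -0.0162, Snhg3 0.127, Snhg5 0.0252, Snhg8 0.0034 and Gas5 -0.0444. Without pair 1, Malat1 was 0.115, Snhg1 -0.0397 and Snhg8 0.0360, and without pair 2, Gas5 was -0.0134 and Snhg3 0.122. The cause was not tested. The lone library left in a condition is then assumed to vary like the others. For Atad2, Frmd8 and Nop10 the alternatives were added after the data were seen, and none of those run turned their direction, although with no filter the adjusted p of Atad2 was 0.311 by limma.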
